A study of Mus musculus with 10 samples.

Results

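The midbrain-hindbrain boundary, or isthmus, is the strip of neural tube that patterns the midbrain in front of it and the cerebellum behind it. The genes described here are 10 transcription factor and signal genes of that boundary: En1, En2, Pax2, Pax5, Pax8, Otx2, Gbx2, Wnt1, Fgf8 and Fgf17. They were taken by name, with symbols matched to Entrez gene IDs, and all 10 were found among the 30935 gene IDs of the count table. RNA-seq libraries came from midbrains of embryonic mice, taken at day 14.5 (E14.5). One group was wild-type (Rbfox1 +/+) and the other homozygous for a deletion of HAR.321, written Rbfox1 ΔHAR.321/ΔHAR.321, a human accelerated region of the Rbfox1 locus. HAR.321 is named for faster change in the human lineage, and the mouse counterpart is what was removed. No strain, sex or litter is given in the sources used here, nor how the deletion was made. Each group held 5 libraries, wild-type 1, 2, 4, 5 and 6 and deletion 2, 3, 4, 5 and 6, described as independent biological samples. Nothing further states what separated them, so p-values measure the spread between these libraries.

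Early in development Otx2 marks the forebrain and midbrain and Gbx2 the anterior hindbrain, and their mutual repression sets where the boundary lies. Wnt1 is then made on the midbrain side and Fgf8, with its relative Fgf17, on the hindbrain side, and both signals keep the engrailed genes En1 and En2 and the paired-box genes Pax2, Pax5 and Pax8 active around them. Later in gestation the signals fade, while En1 and En2 stay on in the tectum and in dopaminergic neurons and Pax2 appears in young inhibitory neurons of the cerebellum.

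The libraries held 16246892 to 20255728 counts each. HAR.321 is not itself a counted gene. Rbfox1 had 2514 to 3449 counts per library with a log2 fold change of 0.11 that did not pass (SE 0.07, adjusted p = 0.606, edgeR's quasi-likelihood test). The midbrain label was compared with markers. Of 13 hindbrain markers, 7, all Hox genes, had 0 counts in every library. For the choroid plexus, where Otx2 is also known to be active, the defining marker Ttr was at 0.246 CPM or less in every library and at 0 counts in 7 of the 10. The remaining 3, wild-type 5, deletion 2 and deletion 3, had 1, 4 and 4 counts of Ttr. They are the libraries that Skor2 sets apart below. Of the other markers in the choroid plexus list of 7, Folr1 stood at 0.950 to 3.26 CPM and Kl at 0.985 to 2.47 CPM. Clic6, Aqp1 and Kcnj13 stood at 0.788 CPM or less in every library. Otx2os1, at 4.19 to 8.73 CPM, overlaps Otx2 on the opposite strand over 154 exonic bases. Whether counting used strand is not given, so its level cannot be read apart from that of Otx2. The part of these markers in the level of Otx2 was not tested. CPM is the count of a gene scaled to a common library size with TMM factors.

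A further set of markers separated the libraries. Skor2, a corepressor of cerebellar Purkinje cells, stood at 19.7 CPM in wild-type 5, 13.6 CPM in deletion 2 and 18.9 CPM in deletion 3, against 1.60 to 5.45 CPM in the other 7 libraries. Atoh1, which defines the rhombic lip, stood at 1.51 to 2.03 CPM in the same 3 libraries and at 0.472 CPM or less elsewhere. Ptf1a, of inhibitory cerebellar progenitors, had 8, 4 and 7 counts in wild-type 5, deletion 2 and deletion 3 and 0 counts in each of the others. Of the 8 cerebellar markers listed, Barhl1, Lhx1, Zic1 and Zic4 were abundant in every library, so the summed level of the list did not separate them (438 to 522 CPM in wild-type libraries, 452 to 499 CPM in deletion libraries). These 3 libraries are 1 of the 5 wild-type and 2 of the 5 deletion libraries, and the fold change of each tested boundary gene is also given without them. That alternative was chosen after the markers were seen.

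None of the 9 boundary genes that could be tested passed the test of deletion against wild-type, and for most of them the spread between libraries of a group was larger than the difference of the means. edgeR's quasi-likelihood test called 0 of the 9, at adjusted p-values from 0.504 to 0.925, against a background of 0.0589% of 15288 genes tested. At an unadjusted p under 0.05 the count was also 0 of 9, where 10.5% of all genes passed. DESeq2 called 0 of the 4 to which it gave an adjusted p, with 1 of the 9 at an unadjusted p under 0.05, and limma-voom called 0 of 9, with 1 at an unadjusted p under 0.05. In both cases that gene was Pax5. For 0 of the 10 genes did the 2 groups of CPM values fail to overlap, where groups stood fully apart for 2.49% of all tested genes. Of the 9, 5 were higher and 4 lower with the deletion. Their median log2 fold change was 0.13, against -0.0024 over all genes tested (7538 higher, 7750 lower). In bulk tissue, fewer cells of a type and less RNA per cell cannot be told apart.

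**Figure D1:**
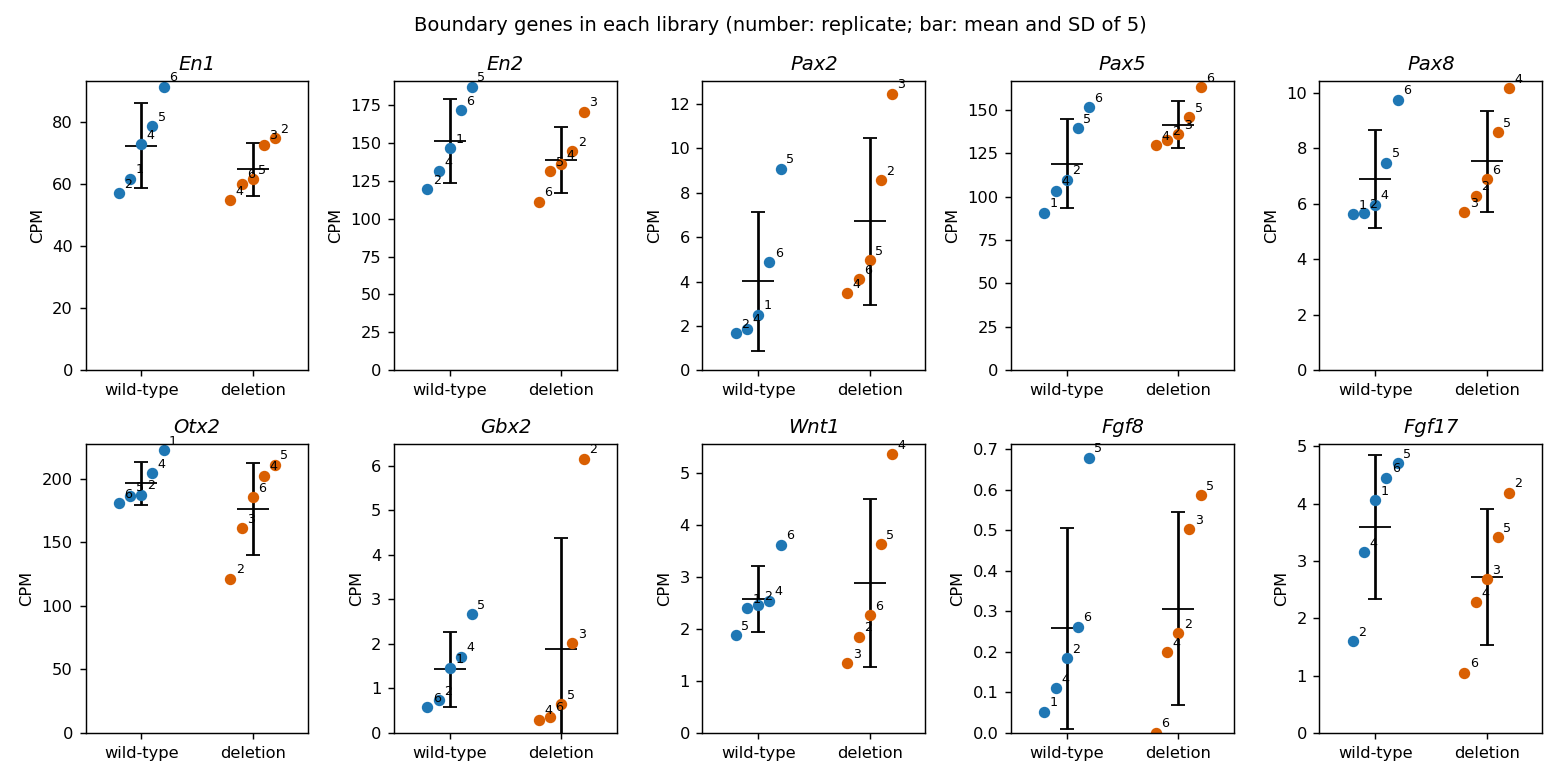
CPM of each boundary gene (vertical axes from 0) in the 5 wild-type and 5 deletion libraries; points are libraries labelled with their replicate number, and bars show the mean and SD. The groups overlap for all 10 genes, and wild-type 5, deletion 2 and deletion 3 lie at the top of their groups for Pax2 and Gbx2.

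Levels of different genes were compared per length, as CPM per kilobase of the longest annotated transcript. Otx2 led, at 71.9 ± 11.1 (SD over all 10 libraries), followed by En2 at 41.0 ± 6.91, En1 at 26.2 ± 4.38 and Pax5 at 16.3 ± 2.82 CPM per kilobase. Each of these 4 lay above the next in all 10 libraries, although the ranges of Otx2 and En2 and of En2 and En1 overlapped between libraries. A 7.64-fold step separated Pax5 from Pax8, at 2.13 ± 0.510 CPM per kilobase. Below it came Fgf17 at 1.87 ± 0.735, Pax2 at 1.23 ± 0.817, Wnt1 at 1.15 ± 0.493 and Gbx2 at 0.779 ± 0.826 CPM per kilobase. Neighbours among Pax8, Fgf17, Pax2, Wnt1 and Gbx2 changed places from library to library: Pax8 lay above Fgf17 in 6 of 10 and Pax2 above Wnt1 in 3 of 10. Fgf8 was last at 0.242 ± 0.198 CPM per kilobase. Otx2, En2 and En1 thus made up 44.2%, 25.1% and 16.1% of the summed level of the 10 genes, averaged over libraries. Pax8 stood at 2.82 CPM per kilobase with the length of its longest protein-coding transcript, since its longest transcript retains an intron. The step from Pax5 to Pax8 is smaller with that length.

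**Figure D2:**
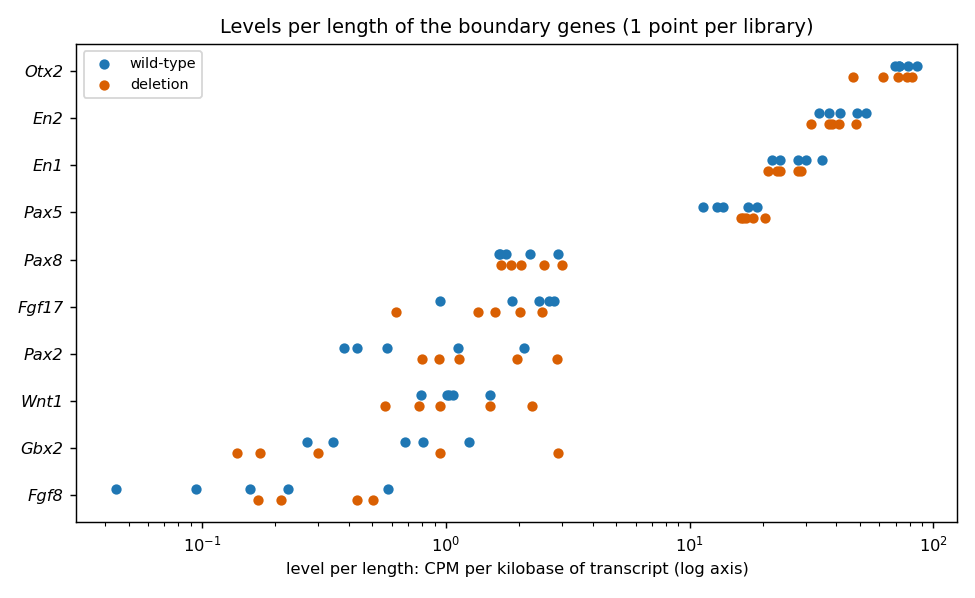
Level per length of the 10 genes (horizontal log axis, CPM per kilobase of transcript), with 1 point per library, wild-type above deletion; the value of 0 for Fgf8 in deletion 6 cannot be drawn. Otx2, En2, En1 and Pax5 form an upper group, of which Pax5, the lowest, is 7.64-fold above Pax8, the next gene. Pax8 is drawn with its longest transcript, which retains an intron. With its longest protein-coding transcript it was at 2.82 CPM per kilobase, so the step is smaller.

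Paralogs among the members could in principle share reads, so their transcripts were compared (GENCODE M21). The sequences below are the longest stretch, in capitals, that is identical between each pair of relatives.
En1 and En2: TTCATCGATAACATCCT
Pax2 and Pax5: TCCATCAACAGGATCAT
Fgf8 and Fgf17: CTGGAGAACAACTACACGGC
These are 17, 17 and 20 bases long. For Pax2 with Pax8 and Pax5 with Pax8 the longest was 12 bases, and no window of 25 bases was shared by any of the 5 pairs compared. Only the longest transcript of each gene was compared. For Pax8 that one retains an intron, so its longest protein-coding transcript, of 2560 bases, was not compared with Pax2 or Pax5. Antisense transcripts overlap some members on the other strand: Otx2os1 over 154 exonic bases of Otx2, Gm13415 over 367 of Pax8, 5730488B01Rik and Gm12462 over 636 and 125 of Pax5, and D130058E05Rik over 946 of Gbx2. Whether counting used strand is not given in the sources used here, so reads in those bases cannot be assigned. Gm49154 overlaps 168 exonic bases of Otx2 on the same strand, where strand would not separate reads. Gm49154 and D130058E05Rik were not found by name in the count table.

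Otx2 and Gbx2, the pair that positions the boundary, lay far apart in level, and deletion 2 was the lowest library of all for Otx2 and the highest for Gbx2. Otx2 (Entrez gene 18424), a homeobox factor of the anterior brain, stood at 223, 188, 205, 187 and 181 CPM in wild-type 1, 2, 4, 5 and 6. It stood at 122, 161, 203, 211 and 186 CPM in deletion 2, 3, 4, 5 and 6. Deletion 2 and deletion 3 lay below every wild-type library, and the other deletion libraries lay within the wild-type range. The group means were 197 ± 17.1 and 176 ± 36.1 CPM (SD, n = 5 libraries in each group). The fitted log2 difference was -0.15 (SE 0.12, 95% interval -0.42 to 0.11; adjusted p = 0.724, edgeR). It was -0.051 without deletion 2 (SE 0.08) and -0.23 without deletion 5 (SE 0.11). Without wild-type 5, deletion 2 and deletion 3 it was -0.0012 (SE 0.09, 95% interval -0.19 to 0.19).

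Gbx2 (Entrez gene 14472), a homeobox factor of the anterior hindbrain that is also active in the thalamus, was low and uneven. It had 28, 12, 31, 51 and 11 counts in wild-type 1, 2, 4, 5 and 6, or 1.46, 0.738, 1.71, 2.66 and 0.577 CPM. In deletion 2, 3, 4, 5 and 6 it had 100, 36, 6, 12 and 7 counts, or 6.16, 2.01, 0.298, 0.639 and 0.368 CPM. Deletion 2 was the highest of all 10 libraries and deletion 4 the lowest, 20.7-fold apart, and both extremes fell in the deletion group. The fitted log2 fold change was 0.37 (SE 0.79, 95% interval -1.37 to 2.11; adjusted p = 0.925, edgeR). Its direction rested on deletion 2, without which it was -0.80 (SE 0.55). Without wild-type 5, deletion 2 and deletion 3 it was -1.37 (SE 0.55, adjusted p = 0.776). Of 8 thalamic markers, 8 were tested, 4 were higher and 4 lower and none passed (median log2 fold change 0.0043; smallest p for Olig3, Lhx9 and Tcf7l2). They summed to 1104 to 1467 CPM in wild-type libraries and 1114 to 1420.4 CPM in deletion libraries. Most of the sum lay in Tcf7l2, Lhx9 and Slc17a6, which averaged 438, 392 and 251 CPM in wild-type libraries. Olig3 averaged 0.653 CPM there. Whether any of this RNA came from thalamus was not tested.

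The ratio of Otx2 to Gbx2, both per length, was 126, 209, 98.4, 57.7 and 258 in wild-type 1, 2, 4, 5 and 6. With the deletion it was 16.3, 66.1, 561, 272 and 415 in libraries 2, 3, 4, 5 and 6. The 3 libraries with high Skor2 thus held the 3 lowest ratios, and the 3 remaining deletion libraries held the 3 highest. The groups overlapped, at medians of 126 and 272, and the ratio was not tested, since both genes were chosen.

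The sequence just before the start of transcription is printed for Gbx2 and Otx2, the pair that positions the boundary, and for Pax2, whose level with that of Gbx2 and Wnt1 did not overlap between the 3 libraries with high Skor2 and the other 7. The share of all genes that separated in this way was not counted, so the separation is not shown to be particular to these members. Each run is the 250 bases before an annotated start (RefSeq, GRCm38.p6, a build other than the mm39 of the counts), with matches to TAATTA or TAATCC (or its reverse complement GGATTA) in capitals. TAATTA is a core that many homeodomain proteins bind, and TAATCC the form preferred by the bicoid type to which OTX2 belongs. The Gbx2 run is chr1:89931177-89931426 (minus strand), the Otx2 run chr14:48665110-48665359 (minus strand) and the Pax2 run chr19:44755502-44755751 (plus strand).
Gbx2: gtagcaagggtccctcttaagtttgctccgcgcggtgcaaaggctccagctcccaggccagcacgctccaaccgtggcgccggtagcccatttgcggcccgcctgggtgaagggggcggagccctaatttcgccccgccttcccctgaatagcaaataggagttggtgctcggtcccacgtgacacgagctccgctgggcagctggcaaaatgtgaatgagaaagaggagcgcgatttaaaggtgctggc
Otx2: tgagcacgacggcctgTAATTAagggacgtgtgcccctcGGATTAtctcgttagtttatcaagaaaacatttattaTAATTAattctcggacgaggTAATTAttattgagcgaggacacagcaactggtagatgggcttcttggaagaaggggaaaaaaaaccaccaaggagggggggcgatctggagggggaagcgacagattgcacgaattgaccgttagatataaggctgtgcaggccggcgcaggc
Pax2: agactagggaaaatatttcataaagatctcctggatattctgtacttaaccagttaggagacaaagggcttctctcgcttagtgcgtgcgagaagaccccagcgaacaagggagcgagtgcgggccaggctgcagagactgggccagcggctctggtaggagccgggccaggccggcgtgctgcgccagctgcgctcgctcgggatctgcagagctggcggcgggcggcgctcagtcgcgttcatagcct
The printed Otx2 run held 3 matches to TAATTA and 1 to TAATCC and was chosen for having the most. Of the other 3 Otx2 starts in the table, 1 had 1 match to TAATTA and 2 had none. Neither motif was in the Gbx2 run, in any of the 3 Pax2 runs, or in those of En1, Pax5, Pax8 and Wnt1. Among 32851 such runs in the RefSeq table, 4.84% held TAATTA and 6.25% TAATCC, counted on both strands. Such matches describe letters and show no binding. Of the 10 members, 7 had an entry in the table: En1, Pax2, Pax5, Pax8, Otx2, Gbx2 and Wnt1.

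The engrailed genes were among the most abundant members, and their groups overlapped widely. En1 (Entrez gene 13798), a homeobox repressor needed to form midbrain and cerebellum, stood at 61.7, 57.2, 72.9, 78.8 and 91.5 CPM in wild-type 1, 2, 4, 5 and 6. Among the deletion libraries, in the order 2, 3, 4, 5 and 6, it was 74.8, 72.8, 54.9, 61.6 and 60.1 CPM. Deletion 4 was the lowest library and wild-type 6 the highest, 1.67-fold apart. The means were 72.4 ± 13.7 and 64.8 ± 8.56 CPM, and the fitted log2 difference -0.16 (SE 0.12, 95% interval -0.41 to 0.084; adjusted p = 0.683, edgeR). It was -0.065 without wild-type 6 (SE 0.11), -0.11 without deletion 4 (SE 0.13) and -0.27 without the 3 libraries with high Skor2 (SE 0.13, adjusted p = 0.833). With the log2 CPM of Skor2 as a covariate, an alternative chosen after the data were seen, it was -0.21 (SE 0.10, adjusted p = 0.430).

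En2 (Entrez gene 13799), its paralog, which shapes the tectum and cerebellum, stood at 147, 119.7, 131, 187 and 172 CPM in the wild-type libraries in the same order. In the deletion libraries it stood at 145, 171, 136, 131 and 111 CPM. Deletion 6 was lowest and wild-type 5 highest, and 4 of 5 deletion libraries were under the wild-type mean of 151 ± 27.9 CPM. With a deletion mean of 139 ± 21.6 CPM, the fitted log2 difference was -0.13 (SE 0.13, 95% interval -0.40 to 0.15; adjusted p = 0.803, edgeR). It was -0.041 without wild-type 5 (SE 0.12), -0.22 without deletion 3 (SE 0.12), -0.20 without wild-type 2 (SE 0.12) and -0.18 without the 3 libraries (SE 0.11, adjusted p = 0.886). With Skor2 as a covariate it was -0.18 (SE 0.08, adjusted p = 0.419). Per length, the ratio of En1 to En2 was 0.649 ± 0.0832 in wild-type and 0.635 ± 0.0785 in deletion libraries. It ran from 0.544 to 0.748 over all 10, a narrower range than that of either gene alone.

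Pax5 was the member with the smallest p. Pax5 (Entrez gene 18507), a paired-box factor that with Pax2 is needed for midbrain and cerebellum, stood at 90.7, 109.8, 104, 139.5 and 152 CPM in wild-type 1, 2, 4, 5 and 6. It stood at 133, 136, 129.8, 146 and 163 CPM in deletion 2, 3, 4, 5 and 6. Each of the 5 deletion libraries exceeded the wild-type mean of 119 ± 25.5 CPM, and 3 wild-type libraries (1, 2 and 4) lay below every deletion library. The remaining wild-type libraries, 5 and 6, lay within the deletion range, so the groups overlapped. With a deletion mean of 141 ± 13.5 CPM the log2 fold change was 0.25 (SE 0.12, 95% interval -0.011 to 0.51; unadjusted p = 0.0592, adjusted p = 0.504, edgeR). It was 0.14 (SE 0.14) after a trend on GC content and transcript length was taken out of each library, at a transcript of 8004 bases, the longest of the 10. It was 0.16 without wild-type 1 (SE 0.10, adjusted p = 0.743). The value was 0.35 both without wild-type 6 (SE 0.10, adjusted p = 0.236) and without wild-type 5, deletion 2 and deletion 3 (SE 0.14, adjusted p = 0.776).

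Pax2 varied far more between libraries than between groups. Pax2 (Entrez gene 18504), the first paired-box gene of the isthmus and later a marker of young inhibitory neurons, stood at 2.50, 1.66, 1.88, 9.09 and 4.87 CPM in wild-type 1, 2, 4, 5 and 6. The deletion libraries, in the order 2, 3, 4, 5 and 6, stood at 8.56, 12.5, 3.47, 4.96 and 4.10 CPM. Wild-type 5, deletion 2 and deletion 3 were the 3 highest, at 8.56 to 12.5 CPM, and the other 7 libraries reached at most 4.96 CPM. The log2 fold change was 0.73 (SE 0.55, 95% interval -0.51 to 1.97; adjusted p = 0.713, edgeR). It was 1.28 without wild-type 5 (SE 0.42, adjusted p = 0.433) and 0.38 without deletion 3 (SE 0.49). Without the 3 libraries together it was 0.60 (SE 0.33, adjusted p = 0.850), and with Skor2 as a covariate 0.56 (SE 0.20, unadjusted p = 0.00978, adjusted p = 0.278).

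Pax8 (Entrez gene 18510), the third paired-box gene of the family, better known from the thyroid, stood at 5.62, 5.66, 5.97, 7.47 and 9.75 CPM in the wild-type libraries. The deletion libraries, in their order, stood at 6.28, 5.70, 10.2, 8.58 and 6.88 CPM. Wild-type 6 and deletion 4 were the highest of their groups and the ranges nearly coincided. The log2 fold change was 0.13 (SE 0.19, 95% interval -0.26 to 0.52; adjusted p = 0.872, edgeR) and -0.0062 without deletion 4. Without the 3 libraries with high Skor2 it was 0.33 (SE 0.22, adjusted p = 0.892).

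Of the signals, Wnt1 (Entrez gene 22408), the ligand of the midbrain side, had 46, 40, 46, 36 and 69 counts in wild-type 1, 2, 4, 5 and 6. That is 2.39, 2.46, 2.54, 1.88 and 3.62 CPM. In deletion 2, 3, 4, 5 and 6 it had 30, 24, 108, 68 and 43 counts, or 1.85, 1.34, 5.36, 3.62 and 2.26 CPM. The 3 libraries with high Skor2 were the 3 lowest for Wnt1, at 1.34 to 1.88 CPM, below all 7 others. The log2 fold change was 0.17 (SE 0.31, 95% interval -0.48 to 0.82; adjusted p = 0.904, edgeR). It was -0.18 without deletion 4 (SE 0.29) and 0.43 without the 3 libraries (SE 0.30, adjusted p = 0.898).

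Fgf17 (Entrez gene 14171), a relative of Fgf8 that outlasts it at the isthmus, had 78, 26, 57, 90 and 85 counts in wild-type 1, 2, 4, 5 and 6, or 4.06, 1.60, 3.15, 4.70 and 4.46 CPM. The deletion libraries had 68, 48, 46, 64 and 20 counts, or 4.19, 2.68, 2.28, 3.41 and 1.05 CPM. Deletion 6 was lowest and 4 of 5 deletion libraries were under the wild-type mean, but wild-type 2 lay below 4 of them. The log2 fold change was -0.41 (SE 0.31, 95% interval -1.07 to 0.24; adjusted p = 0.700, edgeR), -0.21 without deletion 6 (SE 0.28) and -0.60 without wild-type 2 (SE 0.29). Without the 3 libraries with high Skor2 it was -0.57 (SE 0.38, adjusted p = 0.893).

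Fgf8 (Entrez gene 14179), the main organizer signal of the isthmus, was close to the limit of detection. It had 1, 3, 2, 13 and 5 counts in wild-type 1, 2, 4, 5 and 6. The deletion libraries, 2 to 6, had 4, 9, 4, 11 and 0 counts, and the count of 0 allows up to 0.155 CPM (3 counts, counting error only). It was removed by the filter on low counts; the means were 0.258 ± 0.249 and 0.307 ± 0.238 CPM. In the fit with no filter its log2 fold change was 0.23 (SE 0.82, 95% interval -1.40 to 1.87; adjusted p = 0.953, edgeR). A difference between the groups was not detectable at this depth.

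**Figure D3:**
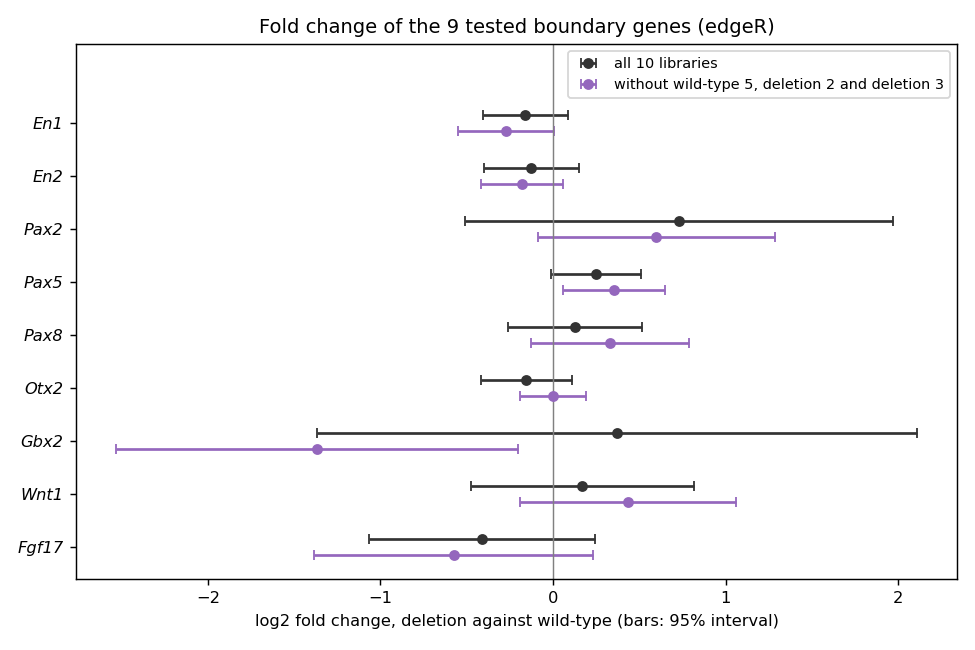
Log2 fold change, deletion against wild-type, of the 9 tested boundary genes with 95% intervals from edgeR, over all 10 libraries (black) and without wild-type 5, deletion 2 and deletion 3 (purple). None of the 9 passed in either fit, and Gbx2 moved from 0.37 to -1.37.

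Without wild-type 5, deletion 2 and deletion 3, edgeR called 0 of the 9 members, 2 of which (Pax5 and Gbx2) had an unadjusted p under 0.05, and 0 of 15529 genes, of which 944 had an unadjusted p under 0.05. With Skor2 as a covariate it called 0 of the 9 and 3 of 15288 genes. In that fit 4 of the 9 (En1, En2, Pax2 and Pax5) and 1587 of the 15288 had an unadjusted p under 0.05. The part of the cerebellar markers in any fold change was not tested beyond these fits.

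Expression of the members spread more between libraries than that of most genes. For 9 of the 9 tested, the SD of log2 CPM over the 10 libraries exceeded the median SD of genes within 0.5 log2 units of the same mean level. For Gbx2 these were 1.24 against 0.52, for Pax2 0.95 against 0.31, and for Pax5 0.26 against 0.12. Pax8 was nearest to other genes, at 0.32 against 0.25. This is a description over 10 libraries of 2 groups and was not tested.

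**Figure D4:**
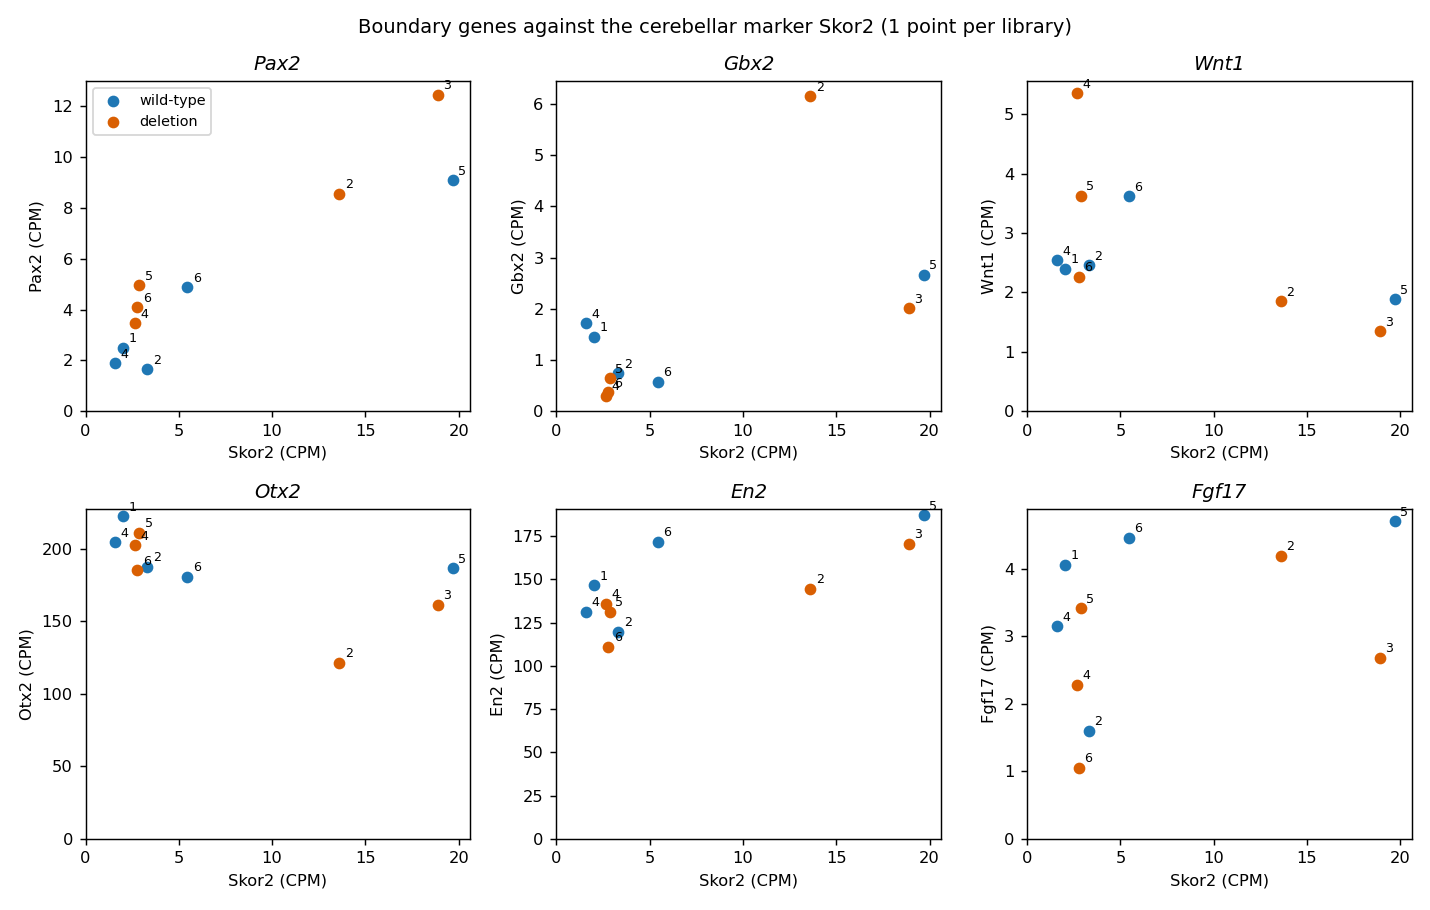
CPM of 6 boundary genes (vertical axes) against CPM of Skor2 (horizontal axes), with 1 point per library labelled with its replicate number, blue for wild-type and orange for deletion. Wild-type 5, deletion 2 and deletion 3, at 13.6 to 19.7 CPM of Skor2, are the 3 highest for Pax2 and Gbx2 and the 3 lowest for Wnt1. The share of all genes that separate these libraries from the others was not counted.

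Co-variation among the members was examined over all 10 libraries, for the 36 pairs of tested genes. None of the 36 passed a permutation test of Pearson's r with Benjamini-Hochberg adjustment (0 of 36; smallest adjusted p = 0.164). Pax8 and Wnt1 had r = 0.78 (permutation p = 0.00699, adjusted p = 0.164) and rho = 0.54 (permutation p = 0.116, adjusted p = 0.363). Without wild-type 6 and deletion 4, the libraries farthest from the median of Pax8, r was 0.48. For En2 and Fgf17, r was 0.77 (permutation p = 0.00925, adjusted p = 0.164), rho 0.79 (permutation p = 0.00881, adjusted p = 0.159), and r without wild-type 5 and deletion 6 was 0.56. En1 and En2 had r = 0.74 (permutation p = 0.0165, adjusted p = 0.164) and rho = 0.73 (permutation p = 0.0204, adjusted p = 0.183), with r = 0.77 without wild-type 6 and deletion 4. Gbx2 and Wnt1 went opposite ways, at r = -0.72 (permutation p = 0.0182, adjusted p = 0.164), rho = -0.73 (permutation p = 0.0197, adjusted p = 0.183) and r = -0.62 without deletion 2 and deletion 4.

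With each gene centred on its group means, 1 pair passed: En2 and Pax2, at r = 0.91 (permutation p = 0.000250, adjusted p = 0.00900), rho = 0.85 (permutation p = 0.00316, adjusted p = 0.114) and r = 0.81 without wild-type 5 and deletion 3. Uncentred, their r was 0.65 (permutation p = 0.0441, adjusted p = 0.245; rho = 0.56), and over the 7 libraries with low Skor2 it was 0.30 (exact permutation p = 0.521; rho = 0.14). Centred on the group means of those 7, an alternative chosen after the data were seen, it was 0.79 (permutation p = 0.0262, adjusted p = 0.0611 over the 7 pairs examined, rho = 0.71). Otx2 and Gbx2 had r = -0.62 over 10 libraries (permutation p = 0.0498, adjusted p = 0.245; rho = -0.31) and r = 0.51 over those 7 (exact permutation p = 0.248; rho = 0.54). Centred, the values were -0.72 over 10 (permutation p = 0.0186, adjusted p = 0.112, rho = -0.53) and 0.79 over 7 (permutation p = 0.0472, adjusted p = 0.0826, rho = 0.75). The negative relation of this pair thus did not hold without the 3 libraries with high Skor2. Without wild-type 1 and deletion 2, the libraries farthest from the median of Otx2, its uncentred r was -0.35. Centred, r was -0.38 without deletion 2 and deletion 5. En2 and Fgf17 kept r = 0.87 over the 7 (exact permutation p = 0.00833; rho = 0.86), and Pax8 and Wnt1 r = 0.89 (exact permutation p = 0.0103; rho = 0.75). Otx2 and Gbx2 were taken by name and the other pairs were picked for their values over all 10 libraries. The values over 7 of them are thus no independent evidence. Permutation of centred values ran across both groups and took no account of the centring. The p-values of centred correlations are therefore approximate and can be too small.

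**Figure D5:**
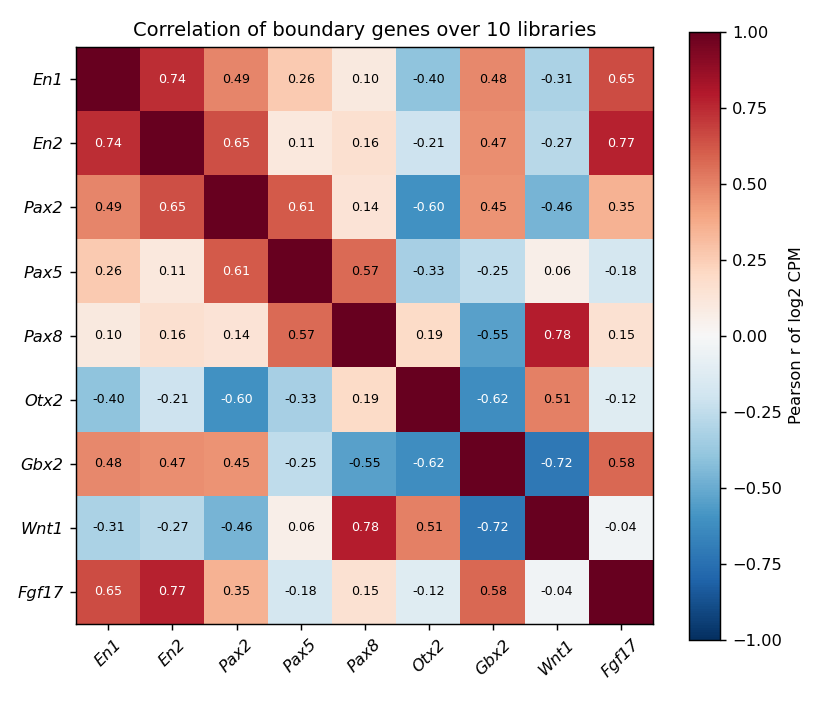
Pearson r of log2 CPM between the 9 tested boundary genes over 10 libraries (red positive, blue negative). En1, En2 and Fgf17 form positive pairs of 0.65 to 0.77, Pax8 and Wnt1 stand at 0.78, and Gbx2 is at -0.72 with Wnt1.

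The genes whose log2 CPM ran most like each member over the 10 libraries, among 14224 genes with a mean of at least 1 CPM, are given as a description. For En1 they were Fgl2 (r = 0.94), Otp (0.91) and Nhlh2 (0.90). For Otx2 they were Pou4f1 (0.93), Mrps10 (0.91) and Fibcd1 (0.90), and for Gbx2 Pla2g7 (0.97), Pdgfd (0.90) and Dpy19l1 (0.90). Pax2 ran with Nid1 (0.95), Efnb2 (0.93) and Epha4 (0.92), Pax5 with Fhdc1 (0.88), Mmp28 (0.88) and Repin1 (0.87), and Pax8 with Gid4 (0.92), Josd1 (0.92) and Zbtb40 (0.90). En2 ran with Prpf3 (0.95), Stx18 (0.93) and Fzd4 (0.93), Wnt1 with Hba-x (0.92), Cenpt (0.90) and Borcs8 (0.89), and Fgf17 with Prpsap2 (0.95), Rrm2 (0.94) and Gpc4 (0.94). All of these values come from the same 10 libraries and the best of many genes, so a high r is to be had for many genes.

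Genes on which the boundary signals act were read from the same fit, and none passed over all genes. Of the 5 other FGF ligands and receptors, 1 was higher and 4 were lower with the deletion (median log2 difference -0.036). Fgf18, the third FGF of the isthmus, averaged 3.18 ± 0.613 CPM in wild-type and 2.07 ± 0.587 CPM in deletion libraries, and each of the 5 deletion libraries was under the wild-type mean (log2 difference -0.63, SE 0.25, adjusted p = 0.365, edgeR). The receptor gene Fgfr1 was at 0.17 (SE 0.09) and Fgf15, of the midbrain, at -0.11 (SE 0.21). Of 13 genes known to answer FGF signals, such as the Sprouty inhibitors, 9 were higher and 4 lower (median 0.055), led by Spred3 (0.13, SE 0.07), Spry4 (0.22, SE 0.18) and the ETS factor gene Etv4 (0.29, SE 0.29). Cnpy1, known as a partner of FGF receptors, stood at 136 to 176 CPM in the 3 libraries with high Skor2 and at 72.8 to 132 CPM in the other 7, with a log2 fold change of -0.078 (SE 0.24). Fgfr1 was at 0.078 without deletion 4 (SE 0.07) and 0.11 without wild-type 4 (SE 0.09), and Spry4 at 0.12 without deletion 2 (SE 0.19).

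Of 15 Wnt receptors and targets, 10 were higher and 5 lower (median log2 difference 0.030). The receptor gene Fzd10 had the smallest p of them. It averaged 50.6 ± 4.51 CPM in wild-type and 41.9 ± 9.48 CPM in deletion libraries (log2 difference -0.27, SE 0.12, adjusted p = 0.415, edgeR). Without deletion 4 it passed over all genes (-0.41, SE 0.08, adjusted p = 0.00979, edgeR), in a fit that called 357 of 15433 genes. The fit of all 10 libraries called 9 of 15288. Under the other alternatives Fzd10 did not pass. Its adjusted p there ran from 0.214 (length and GC trend removed, edgeR) to 0.911 (without the 3 libraries with high Skor2, edgeR). The coreceptor gene Lrp6 was at 0.12 (SE 0.06) and the cyclin gene Ccnd1 at -0.21 (SE 0.11). Lrp6 was at 0.034 with the length trend removed (SE 0.06), and Ccnd1 at -0.32 without deletion 4 (SE 0.09) and -0.080 without the 3 libraries with high Skor2 (SE 0.12). Axin2, the common readout of Wnt signalling, was at -0.14 (SE 0.09), with each of the 5 deletion libraries under the wild-type mean; it is named after its value was seen. Among 13 transcription factor partners, 12 were tested, 3 higher and 9 lower (median -0.042), led by Dmrta2 (-0.50, SE 0.20, adjusted p = 0.352, edgeR), the Notch target Hes1 (-0.22, SE 0.14) and Irx2 (0.078, SE 0.07). Irx2 was at 0.033 without deletion 2 (SE 0.07). Lmx1b, which is needed for Wnt1 and Fgf8 at the isthmus, was at 0.28 (SE 0.27).

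Markers of the neighbouring tissues did not pass either. Of 7 dorsal midbrain markers, 4 were higher and 3 lower (median 0.015), with the smallest p for Lhx5, Gata3 and Pax3. Of 8 dopaminergic markers, 6 were higher and 2 lower (median 0.037; Ddc, Slc18a2 and Pitx3). In the forebrain list 6 of 13 were tested, 2 higher and 4 lower (median -0.11; Six3, Emx2 and Lhx2), and in the cerebellar list 6 of 8, 3 higher and 3 lower (median 0.058; Zic4, Zic1 and Lhx1). Choroid plexus (Otx2os1, Kl and Folr1), eye (Mitf and Rax) and meningeal markers (Dcn, Foxc1 and Foxd1) had 3, 2 and 5 tested members, at medians of 0.046, 0.46 and 0.080. Their summed levels stayed at 13.9 CPM or less in every library.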

How the data were processed

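RNA came from midbrain by the Direct-zol kit (per the labels' protocols), and the authors deposited raw counts per Entrez gene ID, made with HISAT2 and featureCounts on mm39, per the submitters' processing notes; for versions, annotation, strand and multi-mapping, the sources used here give nothing. Symbols came from RefSeq (GRCm38.p6) for 30648 of 30935 IDs, used for names only; the other 287 held 0.0116% of counts. Transcript length and GC came from the longest GENCODE M21 transcript. Between libraries of a group, chi-square per degree of freedom was at least 5.81, so none was a duplicate, and 0 columns were left unused. Deletion 4 stood apart, at 20.6 to 33.1 with each other deletion library, against 5.81 to 10.7 among those others. Wild-type pairs ran from 6.65 to 16.9.

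The test was that of edgeR 4.0.16, R 4.3.3 (filterByExpr, TMM, robust quasi-likelihood F test, group as the only term, two-sided), with Benjamini-Hochberg adjustment over all genes and a threshold of 0.05. Standard errors were the log2 fold change divided by the square root of F; intervals are 95%. Log2 CPM used a prior count of 2. Correlations used 100000 permutations. Depth, 16246892 to 20255728 counts, and 5 libraries per group set the precision.

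Members, lists and tests were chosen with earlier results of these data known. Named genes are all members, the 3 of each other list with the smallest p, and the 3 genes with the highest r to each member, apart from a few marker genes not reported here; Axin2, Lmx1b, Cnpy1 and the edge markers were named after their values were seen. Alternatives were RLE and upper-quartile factors, other filters, DESeq2 1.42.0, limma-voom (limma 3.58.1), a replicate block, removal of trends on length and GC (splines with 4 degrees of freedom), leaving out each library and, chosen after seeing the data, leaving out the 3 libraries with Skor2 above 10 CPM, Skor2 as a covariate, protein-coding transcript length, and correlations over the other 7 libraries, also centred.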

Additional observations from a re-analysis of the deposited data

How the results depend on the processing

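Under every alternative run, the number of boundary genes passing was 0. The count over all genes, 9, was unstable: 15 with upper-quartile factors, 69 with no filter, 18 with the length and GC trend removed, 0 with the length trend alone removed, 235 in DESeq2, 0 in limma-voom, 0 without the 3 libraries with high Skor2 and 3 with Skor2 as a covariate. Leaving out each library gave 0 to 357, with 357 without deletion 4 and 88 without wild-type 2. Where the count was 0, 1185 (length trend), 1656 (limma-voom) and 944 (without the 3 libraries) genes had an unadjusted p under 0.05. With the replicate number as a block the count was 0, with 924 genes at an unadjusted p under 0.05; the numbers did not pair the libraries (correlations of same-numbered deviations from -0.062 to 0.046, and 1 of 8 libraries closest to its own number). No member passed under the block, and Gbx2 stood at -0.51 in it. Other log2 fold changes that turned sign were Gbx2 at -0.42 in limma-voom, -0.80 without deletion 2, -1.37 without the 3 libraries and -0.33 with Skor2 as a covariate; Pax8 at -0.0062 and Wnt1 at -0.18 without deletion 4; Fgf15 at 0.048 under the block and 0.088 without wild-type 5; and Etv4 at -0.0100 without deletion 3 and -0.075 without the 3 libraries; the cause was not tested. Over the fits without 1 library each, the ranges were -0.0062 to 0.28 for Pax8, -0.80 to 0.72 for Gbx2, -0.18 to 0.34 for Wnt1, -0.24 to 0.088 for Fgf15 and -0.0100 to 0.44 for Etv4. The level per length of Pax8 moved to 2.82 with its coding transcript, and centring on group means raised the number of correlated pairs from 0 to 1. En1, En2, Pax2, Pax5 and Fgf17 kept their direction under all alternatives run; Otx2 did so except that it was close to 0 without the 3 libraries (-0.0012, SE 0.09). Counts of 0 to 13 for Fgf8 and 6 to 100 for Gbx2 limit what can be said of them.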
